A study of Mus musculus with 46 samples.

Results

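The genes described here are Yap1, Stk3 and Ywhaz, 3 members of the Hippo pathway that were chosen by name and found by matching the Ensembl identifiers of a deposited count table to GENCODE M21. They are 3 of the 55416 identifiers of the table and 3 of the 8986 that passed a filter on low counts. All 3 passed it.

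The Hippo pathway links contact between cells, cell shape and mechanical tension to growth. Its MST kinases, of which MST2 is encoded by Stk3, activate the LATS kinases, and these phosphorylate the transcriptional coactivator YAP, the product of Yap1. Phosphorylated YAP is bound by 14-3-3 proteins, among them 14-3-3 zeta encoded by Ywhaz, and is held in the cytoplasm, whereas YAP that escapes phosphorylation enters the nucleus and acts with the TEAD transcription factors. Much of this control acts on proteins, which RNA-seq does not measure. In fibroblasts YAP is known for its response to stiffness and spreading. 14-3-3 zeta also binds many phosphorylated proteins outside the pathway.

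The study asked how the transcription factor ATF4, which is translated more efficiently when amino acids or charged tRNAs run short, changes the transcriptome when a tRNA synthetase inhibitor induces it. Mouse embryonic fibroblasts (MEFs) were wild type, purchased from a cell repository, or ATF4 KO, an in-house CRISPR/Cas9 line. Cells of each genotype were treated for 7 h with borrelidin at 600 nM, which inhibits threonyl-tRNA synthetase, or with the vehicle alone, and all 4 groups had DMSO at 1% v/v. The data were read counts of 46 RNA-seq libraries, with 11 vehicle and 12 borrelidin libraries of wild type and as many of each in ATF4 KO. The libraries are labelled as biological replicates. The ATF4 KO line was 1 sorted line, so its libraries are repeats of 1 line and not of separate knockouts, and a difference between the genotypes cannot be told apart from a difference between 2 cell lines. The libraries had 2047362 to 3467765 counts on identifiers.

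The row identifiers match the expression of the genes they name only in parts of the genome. Over 1813 genes with a mean level in the copy of the study's table used here, the levels correlated with r = 0.14 across genes, and over the 50 of them in 5 chromosome segments with r = 0.98. The segments were chosen as runs of genes whose levels matched, so the second value describes that choice and is no independent check of it. Yap1 lies in a segment of chromosome 9 (5.31 to 13.29 Mb), and Stk3 and Ywhaz lie in one of chromosome 15 (9.07 to 37.01 Mb). Ywhaz is itself 1 of those 50 genes, whereas the rows of Yap1 and Stk3 take their names from the matching genes around them. Atf4 itself is outside these segments, so whether the knockout lowered the Atf4 transcript was not analysed here. Of the lists of cell type markers, Cav1 (fibroblasts) lay in a segment with 260 to 634 CPM (counts scaled to a total of 1e6) of summed counts by group, and Esrp1 (epithelial cells) had at most 4 counts in a library.

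Within 3 of the groups, libraries stood apart on the second principal component of the 500 most variable rows, which held 21.9% of their variance. These 14 libraries are 8 vehicle libraries of wild type, and 3 vehicle and 3 borrelidin libraries of ATF4 KO, and no library of wild type with borrelidin is among them. No label names a batch for them. On this component the wild type borrelidin libraries scored 6.4 to 9.7, above both kinds of wild type vehicle library. Those not set apart scored -0.4 to 1.5 and the 8 set apart -19.9 to -13.8. Leaving out the 14 thus removes the wild type vehicle libraries farthest from borrelidin and leaves 3. A smaller wild type change in that fit may partly follow from this choice. None of the 3 genes was among the rows behind the component, but all 3 had lower means in the libraries set apart than in the rest of their group. Each comparison of the 3 genes is therefore given with all libraries, without the 14, and with the set as a block. For other genes the fit with the block is given only in places. The share of the set in the results was not tested beyond these fits.

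Values are CPM scaled by TMM (trimmed mean of M values). Comparisons were tested with edgeR's quasi-likelihood test on the counts of all 46 libraries, and adjusted p means the Benjamini-Hochberg value over all 8986 rows tested. A gene was called changed at an adjusted p under 0.05. Fewer cells of a type and less RNA per cell cannot be told apart in these bulk libraries.

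Levels of the 3 genes differed in order of size in the same way in all 46 libraries. Per kilobase of exon, normalized CPM was 262 to 533 for Ywhaz, 47.9 to 85.9 for Yap1 and 11.1 to 24.9 for Stk3, and these ranges do not overlap. In wild type with vehicle the means were 396 ± 58.1, 58.2 ± 6.39 and 16.0 ± 2.51 CPM per kb (SD, n = 11). The exons used for this scale are 4118 bp for Ywhaz, 9257 bp for Yap1 and 6114 bp for Stk3. Within a group the coefficient of variation was 7.7% to 14.7% for Ywhaz, 6.4% to 12.4% for Yap1 and 7.9% to 20.7% for Stk3. Counting error alone would give 1.4% to 1.6%, 2.2% to 2.7% and 5.1% to 5.8%, so the spread between libraries was larger than the counting error for every gene and group.

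**Figure D1:**
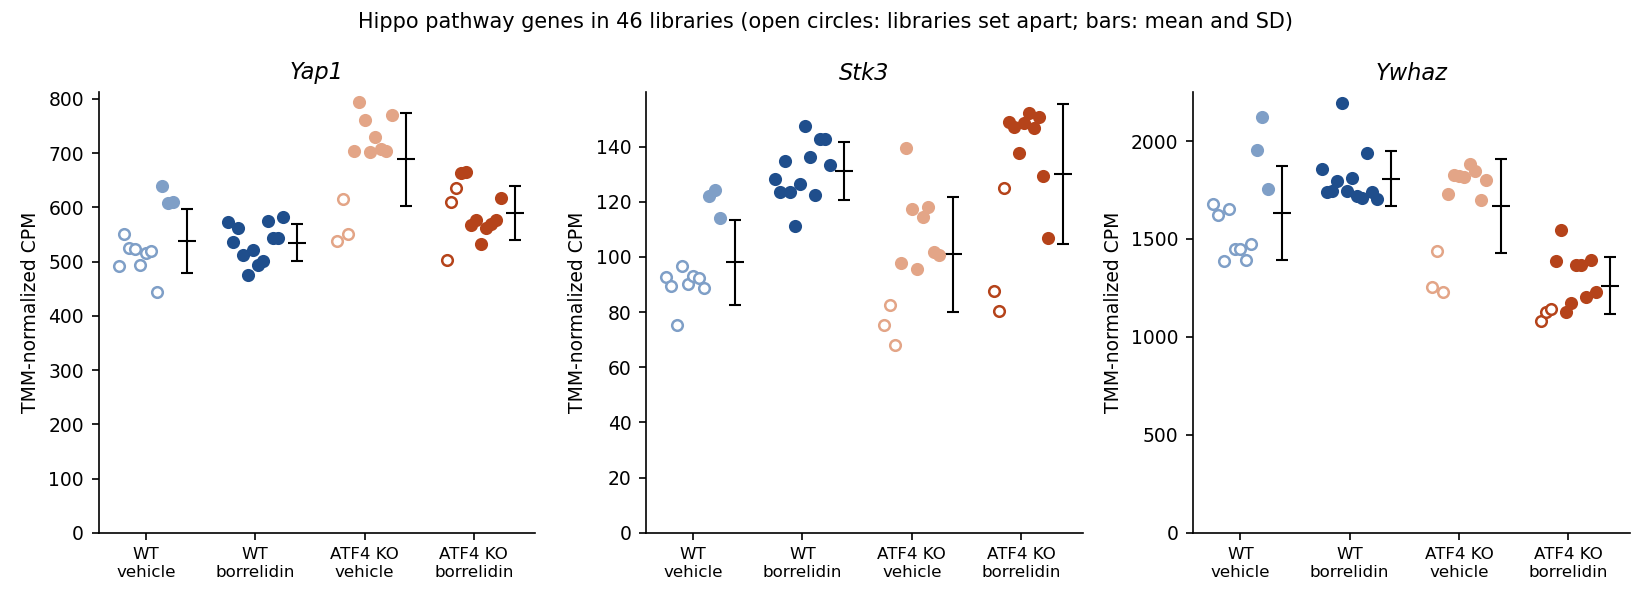
TMM-normalized CPM (y axis, from 0) of Yap1, Stk3 and Ywhaz in each of the 46 libraries by group (x axis). The 14 libraries set apart on the second component are open circles, the others are filled, and bars show the mean and SD of a group; Ywhaz in ATF4 KO with borrelidin (1079 to 1547) lies below all 12 libraries of wild type with borrelidin (1705 to 2195).

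Ywhaz showed the clearest difference between the genotypes. Under borrelidin its level was lower in every ATF4 KO library than in any wild type library, it fell with borrelidin in ATF4 KO, and the responses of the 2 lines differed. Ywhaz (ENSMUSG00000022285) encodes 14-3-3 zeta, a dimeric adapter that binds phosphorylated serine and threonine motifs. It lies at chr15:36770770-36796929 (GRCm38) on the minus strand, with 10 exon blocks in the annotation and no other gene over its exons. It had 3359 to 6202 reads in a library.

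In wild type with vehicle, normalized CPM of Ywhaz was 1385 at the lowest, 1624 at the median and 2125 at the highest, with a mean of 1631 ± 239 (SD, n = 11). In wild type with borrelidin it was 1705, 1746 and 2195, with a mean of 1808 ± 139 (SD, n = 12). All 12 borrelidin libraries lay above the vehicle median, and 1 lay above the highest vehicle library. In ATF4 KO with vehicle the values were 1231, 1802 and 1881 (1669 ± 242, SD, n = 11), and with borrelidin 1079, 1216 and 1547 (1262 ± 146, SD, n = 12). All 12 borrelidin libraries of ATF4 KO lay below the median of its vehicle libraries, and 7 of them below the lowest one. Groups without overlap made up 2.54% of all rows in this comparison.

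The log2 fold change of Ywhaz with borrelidin in ATF4 KO was -0.40 (SE 0.08, 95% interval -0.56 to -0.25, edgeR adjusted p = 7.5e-05). Over all rows tested, 30.6% were called in this comparison, 13.8% as lower. In ATF4 KO, Ywhaz was lower with borrelidin in 11 of 11 comparisons of libraries with the same replicate number. Such libraries were not shown to be pairs. Without the 14 libraries the change was -0.48 (adjusted p = 1.1e-08), and with the set as a block -0.40 (adjusted p = 7.5e-09), so the fall of Ywhaz in ATF4 KO did not rest on the libraries set apart.

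In wild type the change of Ywhaz did not pass the test and its direction was not settled. It was 0.15 (95% interval -0.01 to 0.31, edgeR adjusted p = 0.099) with all libraries, where 59.3% of rows were called, and -0.11 (adjusted p = 0.37) without the 14. With the set as a block it was -0.10 (adjusted p = 0.26), and with TMM computed on the genes of the segments alone -0.07 (adjusted p = 0.21). The 8 wild type vehicle libraries set apart had a mean of 1514 ± 119 CPM (SD, n = 8) and the other vehicle libraries 1945 ± 185 (SD, n = 3). The first of these means lies below that of the borrelidin libraries and the second above it.

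The difference between the responses, wild type minus ATF4 KO, was 0.55 on the log2 scale for Ywhaz (SE 0.11, 95% interval 0.33 to 0.78, edgeR adjusted p = 0.00019), in a comparison in which 33.6% of rows were called, 16.3% as higher and 17.4% as lower. It was 0.37 (adjusted p = 0.009) without the 14 libraries and 0.30 (adjusted p = 0.0049) with the set as a block. When only the 8 wild type vehicle libraries were left out it was 0.31 and no longer passed the test (adjusted p = 0.25).

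Between the genotypes, Ywhaz in ATF4 KO differed from wild type by 0.03 under vehicle (95% interval -0.13 to 0.19, edgeR adjusted p = 0.78) and by -0.52 under borrelidin (SE 0.08, 95% interval -0.67 to -0.36, adjusted p = 1.7e-07). Under borrelidin the 12 libraries of one line did not overlap with the 12 of the other. Of all rows tested, 49.9% were called in this comparison, 24.5% as lower, and 10.9% had groups without overlap. Under vehicle 35.2% were called. Without the 14 libraries the difference under borrelidin was -0.46 (adjusted p = 1.4e-09) and with the set as a block -0.43 (adjusted p = 3.5e-10). Wild type with borrelidin held no library set apart. The 9 borrelidin libraries of ATF4 KO not set apart, with a mean of 1310 ± 135 CPM (SD, n = 9), are among those that lay below all wild type libraries with borrelidin.

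Stk3 was higher after borrelidin in both lines when all libraries were used. The rise stayed in ATF4 KO and was lost in wild type when the libraries set apart were left out, and no difference between the genotypes passed the test with all libraries. Stk3 (ENSMUSG00000022329) encodes MST2, the serine/threonine kinase at the head of the cascade that ends in phosphorylation of YAP. It lies at chr15:34875496-35178921 (GRCm38) on the minus strand, a gene of 303426 bp with 13 exon blocks and no other gene over its exons. It was the least expressed of the 3 genes, with 191 to 459 reads in a library.

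In wild type with vehicle, normalized CPM of Stk3 was 75.3 at the lowest, 92.6 at the median and 124 at the highest (98.1 ± 15.3, SD, n = 11). With borrelidin it was 111, 131 and 148 (131 ± 10.4, SD, n = 12). All 12 borrelidin libraries lay above the vehicle median and 8 of them above the highest vehicle library, so the groups overlapped, whereas 6.1% of all rows had groups without overlap in this comparison. In ATF4 KO the values were 68.0, 101 and 140 with vehicle (101 ± 20.9, SD, n = 11) and 80.5, 142 and 152 with borrelidin (130 ± 25.3, SD, n = 12). Of these 12 borrelidin libraries, 10 lay above the vehicle median and 6 above the highest vehicle library.

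The log2 fold change of Stk3 was 0.42 in wild type (SE 0.10, 95% interval 0.22 to 0.63, edgeR adjusted p = 0.00052) and 0.37 in ATF4 KO (SE 0.10, 95% interval 0.16 to 0.57, adjusted p = 0.0047). Rows called as higher made up 27.6% and 16.8% of those tested. Of the 390 tested genes of the segments, 170 were called as higher and 66 as lower in wild type. In ATF4 KO 110 were called as higher and 61 as lower. In ATF4 KO, borrelidin was higher in 10 of 11 comparisons of libraries with the same replicate number. In ATF4 KO the change of Stk3 was 0.33 (adjusted p = 0.00039) without the 14 libraries and 0.36 (adjusted p = 1.2e-05) with the set as a block.

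In wild type the change of Stk3 was 0.12 (edgeR adjusted p = 0.44) without the 14 libraries and 0.07 (adjusted p = 0.57) with the set as a block. The 8 vehicle libraries set apart had a mean of 89.8 ± 6.37 CPM (SD, n = 8) and the other vehicle libraries 120 ± 5.41 (SD, n = 3), against 131 ± 10.4 with borrelidin. The wild type call was thus lost both without the 14 libraries and with the set as a block. Without them 3 vehicle libraries are compared with 12, and those left out lie farthest from borrelidin on the second component. In ATF4 KO the libraries set apart were lower in both treatments, with 75.3 ± 7.33 against 111 ± 14.8 CPM in vehicle (SD, n = 3 and 8) and 97.8 ± 23.9 against 141 ± 14.7 in borrelidin (SD, n = 3 and 9).

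For Stk3 the difference of the responses, wild type minus ATF4 KO, was 0.06 on the log2 scale (95% interval -0.23 to 0.34, edgeR adjusted p = 0.78). This difference was -0.29 (adjusted p = 0.038) with the set as a block and -0.20 (adjusted p = 0.34) without the 14 libraries, so its sign depended on the treatment of the set. ATF4 KO differed from wild type by 0.04 under vehicle (95% interval -0.17 to 0.25, adjusted p = 0.77) and by -0.01 under borrelidin (95% interval -0.21 to 0.19, adjusted p = 0.92). With the set as a block the difference under vehicle was -0.19 (adjusted p = 0.036).

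Yap1 was higher in ATF4 KO than in wild type under vehicle, and it fell with borrelidin in ATF4 KO. In wild type its change with borrelidin was near 0 with all libraries. Yap1 (ENSMUSG00000053110) encodes YAP, the coactivator on which the kinase cascade acts. It lies at chr9:7931999-8004596 (GRCm38) on the minus strand, with 12 exon blocks. Gm20416, on the plus strand, covers 116 bp of its exons. The strand setting of the counting is not given in the sources used here, and without strand the reads of that stretch cannot be told apart. Yap1 had 815 to 2404 reads in a library.

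Of the 3 genes, only Yap1 had an entry in the RefSeq promoter windows used here (GRCm38.p6). Its sequence is shown because the window holds an element of the TEAD factors, the partners of YAP on DNA. The stretch of 208 bases at chr9:8004639-8004846, on the minus strand, is upstream of the annotated start of the gene and is printed 5′ to 3′. The capitals mark the letters GGAATG, the core of the TEAD element.
Yap1 promoter: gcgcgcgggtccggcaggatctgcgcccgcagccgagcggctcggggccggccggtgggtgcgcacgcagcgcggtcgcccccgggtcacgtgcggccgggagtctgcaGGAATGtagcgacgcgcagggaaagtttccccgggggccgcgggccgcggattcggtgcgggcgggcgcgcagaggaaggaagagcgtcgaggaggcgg
The capitals lie 136 to 141 bp before the annotated start, and 77.4% of the bases are G or C. GGAATG, on either strand, was in 14.7% of the 32851 promoter windows. The ATF4 elements searched, ATTGCATCA, ATTTCATCA, GTTGCATCA and GTTTCATCA on either strand, were in 0.837% of the windows and not in that of Yap1. A match of letters is a description and does not show binding.

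In wild type with vehicle, normalized CPM of Yap1 was 443 at the lowest, 524 at the median and 640 at the highest (538 ± 59.1, SD, n = 11), and with borrelidin 475, 540 and 583 (535 ± 34.5, SD, n = 12). The borrelidin libraries lay within the range of the vehicle libraries. In ATF4 KO it was 537, 705 and 795 with vehicle (689 ± 85.6, SD, n = 11) and 502, 577 and 665 with borrelidin (590 ± 50.04, SD, n = 12). All 12 borrelidin libraries of ATF4 KO lay below its vehicle median, and 8 of the 11 vehicle libraries lay above all borrelidin libraries.

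Under vehicle, Yap1 in ATF4 KO was higher than in wild type by 0.36 on the log2 scale (SE 0.07, 95% interval 0.22 to 0.49, edgeR adjusted p = 2.4e-05), and 17.5% of rows were called as higher and 17.7% as lower in this comparison. All 11 ATF4 KO libraries lay above the wild type median and 8 of them above the highest wild type library. The difference was 0.27 (adjusted p = 0.0078) without the 14 libraries and 0.25 (adjusted p = 0.00027) with the set as a block. Leaving out only the 8 wild type vehicle libraries gave 0.18 (adjusted p = 0.22). The libraries set apart were lower in both lines, with 508 ± 32.2 against 619 ± 17.9 CPM in wild type (SD, n = 8 and 3) and 568 ± 41.6 against 734 ± 36.4 in ATF4 KO (SD, n = 3 and 8).

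Under borrelidin the difference of Yap1 between the lines was smaller, 0.14 (95% interval 0.01 to 0.27, edgeR adjusted p = 0.062). It passed the test without the 14 libraries, at 0.15 (adjusted p = 0.0083), and with the set as a block, at 0.20 (adjusted p = 0.001). Of the 12 ATF4 KO libraries, 10 lay above the median of wild type with borrelidin and 5 above its highest library.

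Borrelidin changed Yap1 in ATF4 KO by -0.22 on the log2 scale (SE 0.06, 95% interval -0.35 to -0.09, edgeR adjusted p = 0.0064), and Yap1 was lower with borrelidin in 10 of 11 comparisons of libraries with the same number. Without the 14 libraries the change was -0.33 (adjusted p = 3.1e-06), and with the set as a block -0.22 (adjusted p = 0.00041). The fall was seen in the libraries not set apart, with 734 ± 36.4 CPM in vehicle and 592 ± 46.4 in borrelidin (SD, n = 8 and 9). Those set apart had 568 ± 41.6 and 583 ± 71.1 (SD, n = 3 each). In wild type the change of Yap1 was -0.01 (95% interval -0.14 to 0.12, adjusted p = 0.92) with all libraries. It was -0.21 (adjusted p = 0.027) without the 14 and -0.16 (adjusted p = 0.038) with the set as a block. The difference of the responses was 0.22 with all libraries (95% interval 0.03 to 0.40, adjusted p = 0.062). It was 0.12 (adjusted p = 0.48) without the 14 and 0.055 (adjusted p = 0.69) with the set as a block. A change of Yap1 particular to ATF4 KO was therefore not shown.

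**Figure D2:**
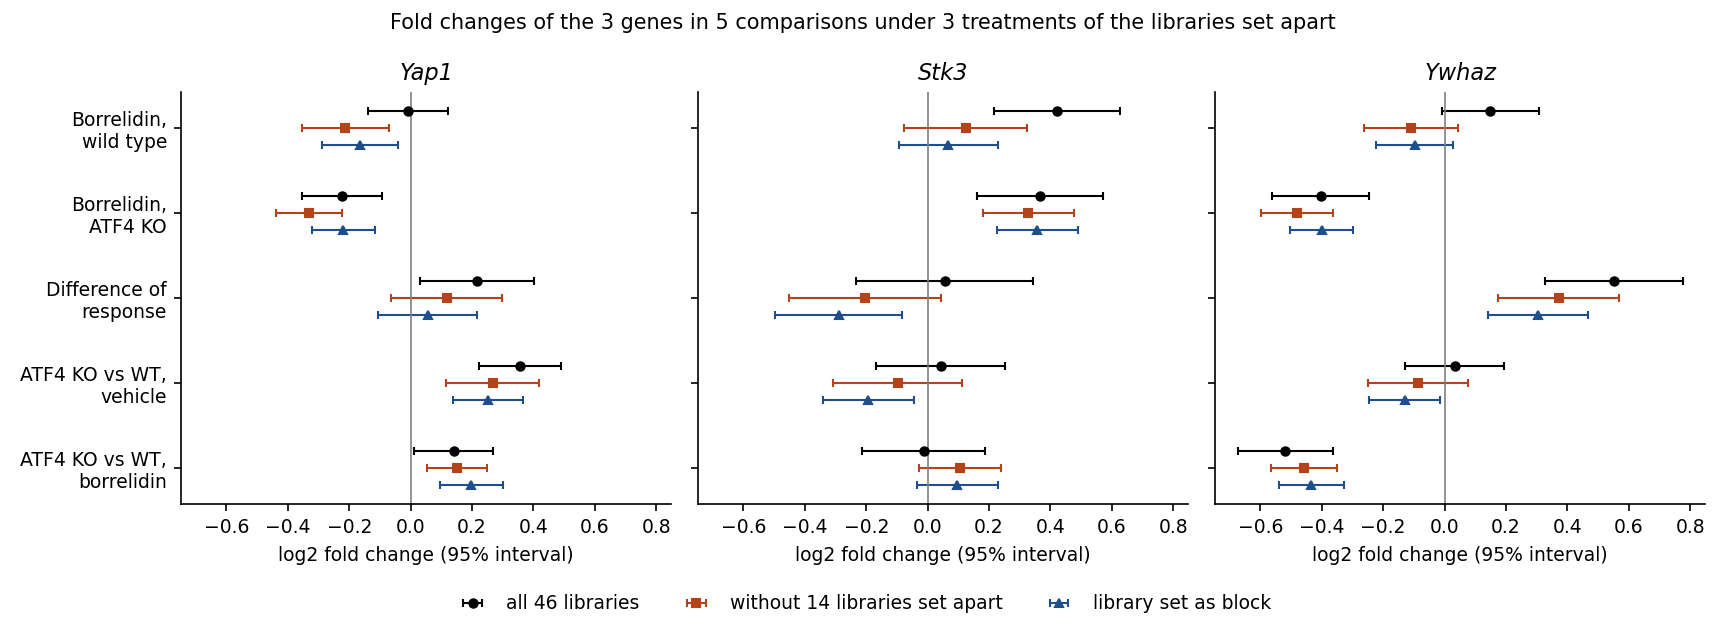
Log2 fold changes (x axis) of Yap1, Stk3 and Ywhaz with 95% intervals in 5 comparisons (y axis), fitted with all 46 libraries (circles), without the 14 libraries set apart (squares) and with the set as a block (triangles). For Ywhaz in ATF4 KO against wild type under borrelidin the 3 fits lie at -0.52, -0.46 and -0.43, whereas for Stk3 with borrelidin in wild type they lie at 0.42, 0.12 and 0.07.

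No member passed a stricter threshold of 1e-10 in any of the 5 comparisons in the edgeR fit of all libraries. Under 2 alternatives Ywhaz did so for ATF4 KO against wild type under borrelidin, at an adjusted p of 1.1e-11 with DESeq2 and 6.1e-11 with TMM on the genes of the segments. At that threshold 2.05% of rows were called for borrelidin in wild type, 0.456% for borrelidin in ATF4 KO, 0.512% for the difference of response, 2.59% between the lines under vehicle and 5.42% under borrelidin.

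The genes of the segments, which hold all 3 members, were on the whole shifted upward in wild type with borrelidin. The median log2 fold change over the 390 tested genes of the segments was 0.20, against -0.04 over all rows, and 170 of them were called as higher and 66 as lower. TMM computed on these 390 genes alone moved the median of all rows in wild type from -0.04 to -0.27. Under it Yap1 in wild type was at -0.23 (edgeR adjusted p = 0.00019), near that median, Ywhaz at -0.07 and Stk3 at 0.20 (adjusted p = 0.016). In ATF4 KO the median of all rows was -0.07 under this scaling and 0.00 under the other.

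Ratios of raw counts between members within a library do not depend on the scaling. They were looked at after the values were known and are given as a description, with no test. How often ratios of other gene pairs separate the groups was not analysed. For single rows, 6.1% had groups without overlap for borrelidin in wild type. The ratio of Yap1 to Stk3 reads was 4.90 to 6.98 in wild type with vehicle (5.54 ± 0.579, SD, n = 11) and 3.35 to 4.69 with borrelidin (4.10 ± 0.375, SD, n = 12). These ranges do not overlap, and the wild type vehicle libraries not set apart, at 4.90 to 5.35, also lay above every borrelidin library. In ATF4 KO the ratio of Yap1 to Stk3 was 5.69 to 8.10 with vehicle (6.94 ± 0.732, SD, n = 11) and 3.50 to 7.58 with borrelidin (4.72 ± 1.16, SD, n = 12). There the ranges overlapped, and among libraries not set apart they were 5.69 to 7.65 and 3.50 to 5.78.

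The ratio of Ywhaz to Yap1 reads did not overlap between the genotypes, by a narrow margin (2.64 against 2.61). It was 2.64 to 4.62 over the 23 wild type libraries and 1.79 to 2.61 over the 23 ATF4 KO libraries, whatever the treatment or set. For wild type the means were 3.03 ± 0.288 with vehicle and 3.40 ± 0.444 with borrelidin, and for ATF4 KO 2.42 ± 0.127 and 2.15 ± 0.242 (SD, n = 11 with vehicle and 12 with borrelidin). The highest value, 4.62, is from replicate 5 of wild type with borrelidin, which also had the highest Ywhaz. Without it the highest wild type value was 3.66.

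The ratio of Ywhaz to Stk3 reads averaged 16.7 ± 1.18 with vehicle in wild type and 16.7 ± 1.60 with vehicle in ATF4 KO (SD, n = 11 each). It was 13.9 ± 2.00 in wild type with borrelidin and 9.99 ± 1.88 in ATF4 KO with borrelidin (SD, n = 12 each). In ATF4 KO the lowest vehicle library, at 13.1, lay below the highest borrelidin library, at 13.99.

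**Figure D3:**
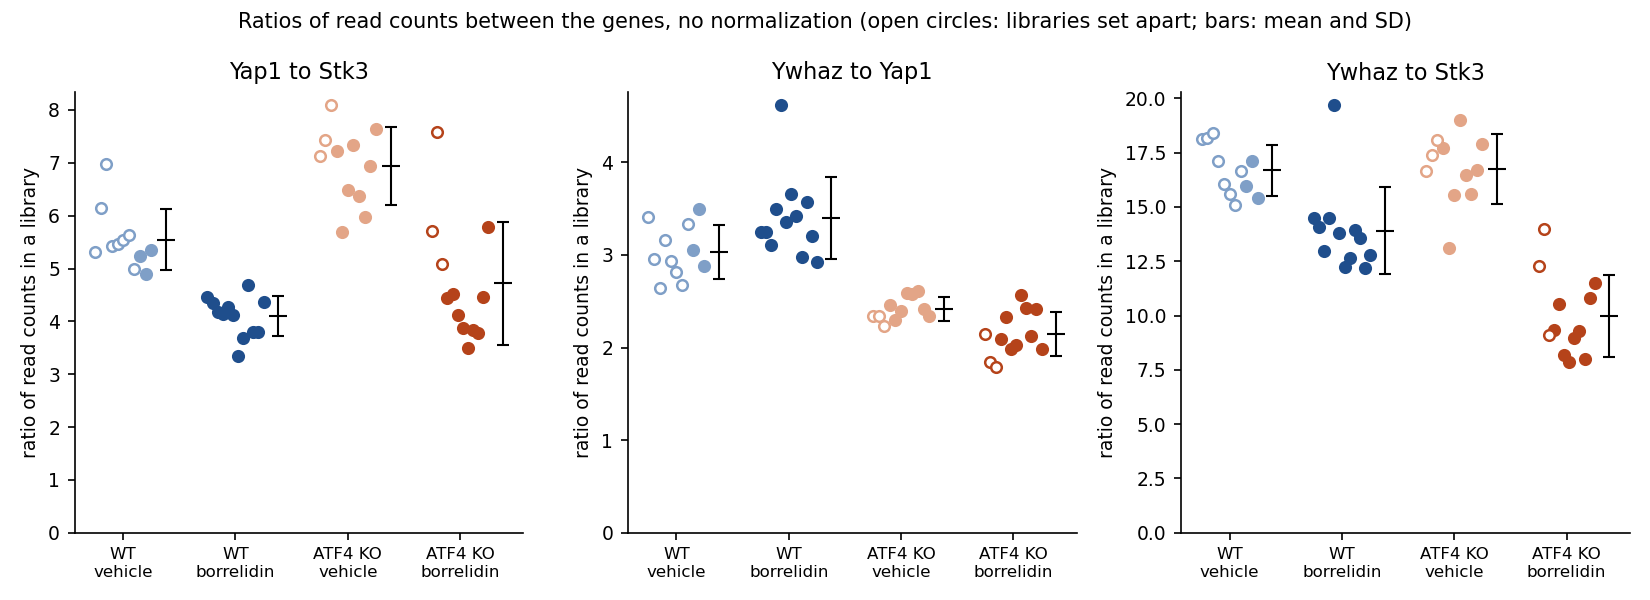
Ratios of raw read counts (y axis, from 0) of Yap1 to Stk3, Ywhaz to Yap1 and Ywhaz to Stk3 in each of the 46 libraries by group (x axis). The 14 libraries set apart are drawn open, and bars show the mean and SD; for Ywhaz to Yap1 all wild type libraries, at 2.64 or above, lie over all ATF4 KO libraries, at 2.61 or below.

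Of 179 genes listed for the Hippo pathway and its inputs and targets in 9 groups, 15 lie in the segments and 12 were tested, so 9 were tested beside the 3 members. Cttnbp2, Wnt2 and Wnt16 lie in the segments and did not pass the filter. With borrelidin in wild type, 1 of the 9 was called as higher and 7 as lower (median log2 fold change -0.35), where 27.6% of all rows were called as higher and 31.7% as lower. Without the 14 libraries 2 of the 9 were called as higher and 1 as lower in wild type (median -0.14). Most of the lower calls were thus lost in that fit. With the set as a block the lower calls of Jcad, Arhgap42 and Birc3 stayed, and those of Strip2, Trio, Birc2 and Fzd8 did not. In ATF4 KO 2 of the 9 were called as higher and 1 as lower (median 0.11), where 16.8% and 13.8% of all rows were. Without the 14 these were 3 and 2 (median 0.21). Between the lines, 4 were higher and 1 lower in ATF4 KO under vehicle (median 0.03), where 17.5% and 17.7% of all rows were called, and 4 and 0 without the 14 libraries. Under borrelidin 7 were higher and 1 lower, with the 14 libraries (median 0.54) and without them (median 0.53), where 25.5% and 24.5% of all rows were called. The 9 genes are no sample of the pathway, since position alone decided which could be read.

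Upstream of YAP, Wwp1 encodes a ubiquitin ligase that acts on LATS1. Its mean normalized CPM was 200 ± 15.7 in wild type with vehicle and 260 ± 29.7 with borrelidin, and 205 ± 11.0 and 190 ± 13.3 in ATF4 KO (SD, n = 11 or 12). Wwp1 rose in wild type by 0.38 on the log2 scale (edgeR adjusted p = 4.1e-07), the responses differed by 0.48 (adjusted p = 1.1e-05), and the difference of ATF4 KO from wild type under borrelidin was -0.45 (adjusted p = 2.4e-09). Like Ywhaz, it thus differed between the lines under borrelidin and not detectably under vehicle, where its difference was 0.03 (adjusted p = 0.69). Both calls of Wwp1 for the response held without the 14 libraries, at 0.44 (adjusted p = 0.00041) and 0.62 (adjusted p = 0.00017).

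Jcad encodes a junction protein that binds LATS2, and it was higher in ATF4 KO under both treatments. Its mean normalized CPM was 224 ± 39.9 and 156 ± 18.0 in wild type with vehicle and borrelidin, and 395 ± 38.04 and 301 ± 28.6 in ATF4 KO (SD, n = 11 or 12). The difference of Jcad between the lines was 0.82 under vehicle (edgeR adjusted p = 3.4e-12) and 0.95 under borrelidin (adjusted p = 5.1e-15), and without the 14 libraries 1.18 and 0.91. Jcad fell with borrelidin in both lines, with a log2 fold change of -0.40 in ATF4 KO (adjusted p = 6.8e-05) and -0.52 in wild type (adjusted p = 2.9e-07). Without the 14 libraries the wild type change was -0.25 (adjusted p = 0.052), and with the set as a block -0.46 (adjusted p = 5.7e-05).

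Strip2, a subunit of the STRIPAK phosphatase complex that removes phosphate from MST kinases, was low in all groups (6.83 to 12.1 mean normalized CPM). Its change was 0.81 in ATF4 KO (edgeR adjusted p = 0.00017) and -0.39 in wild type (adjusted p = 0.048), the latter near the threshold and 0.00 (adjusted p = 1) without the 14 libraries.

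Rock1, a kinase that acts on actomyosin contraction, was higher in ATF4 KO by 0.39 under vehicle (edgeR adjusted p = 1.8e-05) and 0.54 under borrelidin (adjusted p = 5.5e-09), and its change with borrelidin passed in neither line. Arhgap42 changed in opposite directions, by -0.20 in wild type (adjusted p = 0.011) and 0.25 in ATF4 KO (adjusted p = 0.0042), and the difference of -0.45 passed the test (adjusted p = 0.00043). Both changes of Arhgap42 held without the 14 libraries, at -0.31 (adjusted p = 0.025) and 0.22 (adjusted p = 0.015). Trio was at -0.56 in wild type (adjusted p = 0.0038) and turned to 0.40 (adjusted p = 0.027) without the 14 libraries, so its direction was not settled.

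Among genes that YAP and TEAD are reported to drive, the inhibitors of apoptosis Birc2 and Birc3 lie on chromosome 9 next to Yap1. Both were lower with borrelidin in wild type, Birc2 at -0.35 (edgeR adjusted p = 0.00087) and Birc3 at -0.71 (adjusted p = 1.6e-07). Neither call held without the 14 libraries, at -0.14 (adjusted p = 0.47) and -0.26 (adjusted p = 0.21). With the set as a block Birc3 kept its call, at -0.60 (adjusted p = 6.9e-05), and Birc2 did not, at -0.14 (adjusted p = 0.25). Under borrelidin both were higher in ATF4 KO, Birc2 by 0.49 (adjusted p = 6.2e-06) and Birc3 by 0.46 (adjusted p = 0.00018). These calls held without the 14 libraries, at 0.44 and 0.50. The Wnt receptor Fzd8 was higher in ATF4 KO by 0.69 under vehicle (adjusted p = 7.3e-06) and by 1.196 under borrelidin (adjusted p = 3.2e-12).

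**Figure D4:**
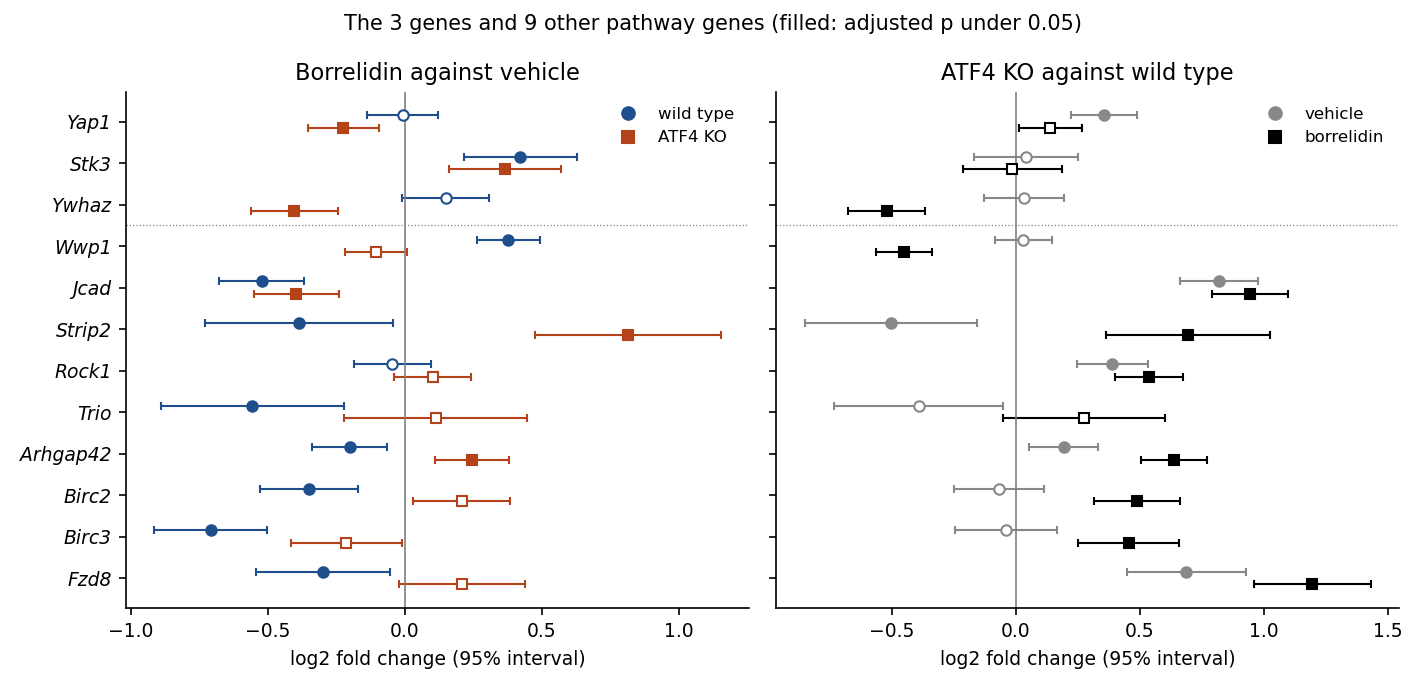
Log2 fold changes with 95% intervals (x axis) of the 3 members (above the dotted line) and the 9 other pathway genes tested (y axis), for borrelidin against vehicle in each line (left) and ATF4 KO against wild type under each treatment (right), from the fit of all 46 libraries. Filled symbols have an adjusted p under 0.05; Ywhaz and Wwp1 are lower in ATF4 KO under borrelidin, whereas 7 of the 9 other pathway genes are higher.

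The nearest tested protein-coding genes did not all share the pattern of the member beside them. Yap1 lies 58812 bp from Birc3 and 17075 bp from Cfap300, and under vehicle, where Yap1 was higher in ATF4 KO, Birc3 was at -0.04 (edgeR adjusted p = 0.79) and Cfap300 at 0.23 (adjusted p = 0.34). Ywhaz lies 161101 bp from Pabpc1, which encodes the poly(A)-binding protein of the cytoplasm, and 200097 bp from Zfp706. Under borrelidin Pabpc1 and Zfp706 were lower in ATF4 KO too, at -0.54 (adjusted p = 2e-06) and -0.72 (adjusted p = 8e-07), in both cases without overlap of the groups. Their changes with borrelidin in ATF4 KO, -0.13 (adjusted p = 0.3) and -0.09 (adjusted p = 0.62), did not pass the test with all libraries. Without the 14 libraries both did, at -0.21 (adjusted p = 0.0024) and -0.16 (adjusted p = 0.033). With the set as a block neither did, at -0.13 (adjusted p = 0.058) and -0.08 (adjusted p = 0.21). Their differences of response were 0.64 (adjusted p = 0.00023) and 0.59 (adjusted p = 0.006), and without the 14 libraries 0.28 (adjusted p = 0.043) and 0.14 (adjusted p = 0.46). Stk3 lies 344847 bp from Pop1 and 117176 bp from Osr2. In wild type with borrelidin Osr2 was at 0.12 (adjusted p = 0.71), and mean normalized CPM of Pop1, a subunit of RNase P, was 308 ± 29.7 with vehicle and 416 ± 41.9 with borrelidin (SD, n = 11 and 12).

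The genes whose pattern over the 4 groups was most like that of a member were found by the root mean square difference of centred mean log2 CPM, among 251 protein-coding genes of the segments. For Ywhaz they were Mdn1, a factor of ribosome assembly, at 0.04, Msantd3 at 0.058 and Fam3c, a secreted protein, at 0.065. Mean normalized CPM of Msantd3 was 111, 128, 120 and 80.5 in wild type with vehicle, wild type with borrelidin, ATF4 KO with vehicle and ATF4 KO with borrelidin. For Stk3 the closest were Nrf1, which encodes nuclear respiratory factor 1, at 0.029, 1810049J17Rik at 0.042 and Golph3, a Golgi phosphoprotein, at 0.046. The last 2 overlap on opposite strands at 12.32 Mb of chromosome 15, and without strand their reads cannot be told apart. For Yap1 they were Clvs1 at 0.044, the adapter Shb at 0.046 and Asph, a hydroxylase of the endoplasmic reticulum, at 0.061. Each likeness is over 4 group means of the same libraries and says nothing of shared control.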

How the data were processed

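The authors deposited raw counts per identifier, unpooled and not normalized, after alignment with HISAT2. HTSeq and mm10 are named in the submitters' processing notes, whereas the methods of the study name feature counts for quantification. The sources used here do not state versions, strand or annotation release. Of the reads, 69.0% on average had no feature, 10.8% were not aligned, 5.1% were of low quality, 4.0% aligned to several places and 0.3% were ambiguous; these rows were left out. Segments were runs of at least 4 consecutive protein-coding genes whose log2 mean CPM lay 1 to 4 above the study's mean level. R 4.3.3, edgeR 4.0.16 (TMM, filterByExpr, quasi-likelihood test over 4 groups), DESeq2 1.42.0, limma 3.58.1 and Python 3.11.15 were used. The edgeR fit was run on simulated data that held no difference between sets of libraries, so that run says nothing of the libraries set apart. Libraries were set apart where a gap in the scores of component 2 exceeded 50% of their group's range. No pair of libraries of a group differed by less than the sampling noise.

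The members and lists were chosen with earlier results of these data known. The genes named were the members, listed pathway genes tested in the segments, the nearest tested protein-coding gene on each side, and the 3 genes with the closest pattern and a mean of at least 5 log2 CPM. Same-numbered libraries deviated together, with r over 0.1, for 11 of 11 numbers between the ATF4 KO groups (0.19 to 0.78), and for 2 of 11 to 5 of 10 numbers elsewhere. For ATF4 KO without the libraries set apart this held for 2 of 8. In both ATF4 KO groups the libraries set apart are replicates 1 to 3, so pairing by number cannot be told apart from the shared set. Pairing was thus not shown, and counts over same-numbered libraries are descriptions. Alternatives were other normalizations, no filter, DESeq2, limma voom, the replicate block, other designs and sets of libraries, a stricter threshold and a permutation test.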

Additional observations from a re-analysis of the deposited data

Results flagged for a closer look

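Of the 12 pathway genes tested, members included, 8 differed between the lines in their response to borrelidin, by the test of the difference itself (wild type minus ATF4 KO, edgeR adjusted p under 0.05), as did 33.6% of all rows tested. Ywhaz differed by 0.55 on the log2 scale. This was 0.37 (adjusted p = 0.009) without the 14 libraries set apart, and 0.31 (adjusted p = 0.25) without the 8 wild type vehicle libraries among them, where the call was lost. The change of Ywhaz in wild type was -0.11 under both, so opposite responses of the lines were not shown. Wwp1 differed by 0.48 and Arhgap42 by -0.45, and both passed the test without the 14 libraries set apart as well, at 0.62 and -0.53. The differences of Strip2 (-1.20), Trio (-0.67), Birc2 (-0.56), Fzd8 (-0.51) and Birc3 (-0.49) did not pass it without those libraries, where their adjusted p was 0.064, 0.54, 0.1, 0.3 and 0.83. For Trio the sign turned in that fit, to 0.19. With the set as a block Strip2 (-1.15, adjusted p = 0.0009), Birc2 (-0.36, adjusted p = 0.022) and Fzd8 (-0.53, adjusted p = 0.025) passed the test. Birc3 (-0.40, adjusted p = 0.052) and Trio (0.017, adjusted p = 0.95) did not.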

How the results depend on the processing

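The lower Ywhaz of ATF4 KO under borrelidin kept its direction and call in 12 of 13 alternatives (log2 -0.52 to -0.43), and its fall in ATF4 KO in 10 of 11. So did the rise of Stk3 in ATF4 KO (10 of 11, 0.30 to 0.37). For these 3 the exception was the threshold of 1e-10. At 1e-10 all 7 calls of members in the edgeR fit were lost: Ywhaz between the lines under borrelidin (-0.52), in ATF4 KO (-0.40) and in the difference of response (0.55), Stk3 in wild type (0.42) and ATF4 KO (0.37), and Yap1 in ATF4 KO (-0.22) and between the lines under vehicle (0.36). There 184, 41, 46, 233 and 487 rows were called, against 5327, 2748, 3023, 3167 and 4487 at 0.05, for borrelidin in wild type, borrelidin in ATF4 KO, the difference of response, and the lines under vehicle and under borrelidin.

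Without the 14 libraries set apart, Stk3 in wild type lost its call (0.12). Yap1 gained one in wild type (-0.21) and between the lines under borrelidin (0.15). Signs turned for Ywhaz in wild type (-0.11) and between the lines under vehicle (-0.086), and for Stk3 in the difference of response (-0.20), under vehicle (-0.10) and under borrelidin (0.11). Rows called fell to 1637 for borrelidin in wild type, 870 for the difference of response and 1847 between the lines under vehicle. With the set as a block the same results changed: Stk3 in wild type 0.068, Yap1 -0.16 and 0.20, Ywhaz -0.10 and -0.13, and Stk3 -0.29, -0.19 and 0.10, with 2632 and 1797 rows called for borrelidin in wild type and the difference of response. Leaving out only the 8 wild type vehicle libraries, chosen after seeing the data, took the calls of Stk3 in wild type (0.12), Yap1 between the lines under vehicle (0.18) and Ywhaz in the difference of response (0.31). Signs turned for Ywhaz in wild type (-0.11) and under vehicle (-0.20), and for Stk3 in the difference of response (-0.22) and under vehicle (-0.23), with 924, 375 and 1464 rows called for borrelidin in wild type, the difference of response and the lines under vehicle. The cause was not tested.

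TMM on the segment genes turned Ywhaz in wild type (-0.075) and under vehicle (-0.10) and Stk3 in the difference of response (-0.10), under vehicle (-0.090) and under borrelidin (0.0080), and brought calls of Yap1 in wild type (-0.23) and between the lines under borrelidin (0.18). This last difference was also called with median ratio normalization (0.15), DESeq2 (0.15), only the groups compared (0.14) and the permutation test (0.14). The difference of response of Yap1 was called with DESeq2 (0.21) and without replicate 5 of wild type with borrelidin, also chosen after seeing the data (0.22), where Yap1 in wild type was at 0.0046. Leaving out the shallowest library, chosen after seeing the data too, changed no call or sign of a member in the 3 comparisons it entered. With no filter on low counts Yap1 in ATF4 KO lost its call (-0.23), and Yap1 in wild type (0.029) and Stk3 between the lines under borrelidin (0.0025) turned sign near 0. Ywhaz in wild type was called by the permutation test (0.16) and with the replicate block (0.17, adjusted p = 0.045). The replicate block changed no other call. Depth limits Stk3 most, with a counting error of 5.1% to 5.8% of its level in a library.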
